A study of Mus musculus with 6 samples.

Results

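The translation initiation factor genes were taken from the gene table by symbol, as every gene whose symbol starts with Eif and a number from 1 to 6, which gave 55 of the 24060 genes listed. RNA was sequenced from retinal ganglion cells (RGCs), the neurons that send their axons from the eye to the brain, in 3 samples from E18 embryos and 3 samples from P5 pups of C57BL/6 mice. The labels give neither age a transgene, an injury or a treatment, so the groups differ in age alone as far as the labels go. The comparison addresses how RGC transcripts differ between an age of strong intrinsic axon growth and an age at which that capacity has been lost. The cells were purified from papain-dissociated retinas on dishes coated with antibodies, first against macrophages and then against CD90 (Thy1), and the figure legend of the study also names sorting for Thy1. The samples are numbered 1, 3 and 4 at E18 and 6, 8 and 9 at P5, and since the counts of E18 replicate 1 stand under a name that holds 1, 2 and 5, pooling of preparations cannot be told. Nothing says that the samples came from separate litters, so p-values measure only the spread between these samples, which may be technical.

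Initiation is the step at which a ribosome is brought to the start codon of an mRNA. The small ribosomal subunit, with eIF1, eIF1A, eIF3, eIF5 and the initiator tRNA carried by eIF2 with GTP, is recruited to the capped end of the mRNA by eIF4E, eIF4G and the helicase eIF4A, and it then scans to the start codon, where eIF5B brings in the large subunit. The step is controlled at a pair of points. The 4E-BP proteins hold eIF4E away from eIF4G until the kinase mTORC1 phosphorylates them, and stress kinases phosphorylate eIF2, which blocks its exchange factor eIF2B and favours translation of a few mRNAs such as that of the transcription factor ATF4. In RGCs, mTORC1 activity is known to fall with maturation, and protein synthesis in the axon is part of axon growth.

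Eif1, Eif1ax, Eif4b, Eif4g2, Eif4ebp2 and Eif5a2 were called with every other tool, normalization or filter and with each sample left out. Of these, Eif4ebp2, Eif5a2 and Eif1ax are introduced by the DNA ahead of their start sites. They were picked because their stretches held the letters marked below, whereas Eif1, Eif4b and Eif4g2 had no promoter or no such letters. The search was made because Elk-1, an ETS-family factor that the study followed up, binds a GGAA core. The stretches are RefSeq promoters of GRCm38.p6, read 5′ to 3′ on the strand of the gene and ending at the base before the start site. Capitals mark the letters CCGGAAG or, read on the other strand, CTTCCGG, and also CACGTG, the E-box bound by MYC-family factors. Eif4ebp2 lies at chr10:61452670-61452919 (minus strand), Eif5a2 at chr3:28781027-28781276 (plus strand) and Eif1ax at chrX:159371928-159372177 (plus strand).
Eif4ebp2: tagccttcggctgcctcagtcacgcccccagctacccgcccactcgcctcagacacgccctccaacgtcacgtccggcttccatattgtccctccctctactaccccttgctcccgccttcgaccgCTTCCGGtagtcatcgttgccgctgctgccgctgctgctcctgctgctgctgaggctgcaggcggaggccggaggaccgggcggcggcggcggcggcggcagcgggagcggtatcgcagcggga
Eif5a2: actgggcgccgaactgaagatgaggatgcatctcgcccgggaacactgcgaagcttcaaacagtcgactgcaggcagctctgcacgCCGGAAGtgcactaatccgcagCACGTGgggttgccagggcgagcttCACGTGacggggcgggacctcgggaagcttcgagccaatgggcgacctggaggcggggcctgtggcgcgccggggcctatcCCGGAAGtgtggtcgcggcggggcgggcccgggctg
Eif1ax: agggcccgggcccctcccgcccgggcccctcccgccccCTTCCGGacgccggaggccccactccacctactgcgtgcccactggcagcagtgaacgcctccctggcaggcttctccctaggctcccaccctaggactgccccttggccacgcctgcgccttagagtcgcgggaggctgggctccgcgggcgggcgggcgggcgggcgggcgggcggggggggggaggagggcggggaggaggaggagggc
Eif5a2 held CCGGAAG at 2 places and CACGTG at 2 places, and Eif4ebp2 and Eif1ax each held CCGGAAG at 1 place, on the other strand. RefSeq promoters, of 250 bases before to 50 bases after the start, were found for 43 of the 55 genes. CCGGAAG was present on either strand in 16 of the 43 (37.2%), against 9.93% of 27025 genes with a promoter and 17.1% of the 11978 of those that were tested here. CACGTG, which cannot occupy the same bases as the first motif in full, was present in 10 of the 43 (23.3%), against 8.09% of all genes and 11.0% of tested genes. By call, CCGGAAG was present in 2 of 10 genes that were higher at E18, 2 of 2 that were lower at E18 and 12 of 30 that were not called. These matches describe letters in a window and are not binding sites.

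Levels are given as CPM, the count of a gene scaled to a fixed library total. The deposited counts on genes summed to between 81213639 and 114512853 per sample. The 14 RGC markers were all detected, with a summed level of 7962 to 9340 CPM at E18 and 8527 to 9638 CPM at P5, and 4 of them were higher and 4 lower at E18. Among these, Thy1, the surface protein used for purification, was at 212 to 312 CPM at E18 and 469 to 690.1 CPM at P5. Markers of other cells also moved with age. Some did so mostly through E18 replicates 1 and 3, which stand apart from E18 replicate 4, and others in all E18 samples. The 14 genes of dividing cells summed to 340.0, 144 and 93.6 CPM in E18 replicates 1, 3 and 4 and to 71.3 to 89.6 CPM at P5, with 9 of 14 higher at E18, and the 12 genes of retinal progenitors to 182, 128 and 32.0 CPM against 21.6 to 29.8 CPM, with 6 of 12 higher. Of the 11 amacrine genes 5 were higher and 1 lower. Their sum of 871 to 959 CPM at E18 and 1162 to 1508 CPM at P5 is mostly Calb2, whereas the amacrine factor gene Tfap2b was at 47.5, 119 and 1.62 CPM at E18 and 1.02 to 1.55 CPM at P5. The 9 endothelial and pericyte genes, 1 higher and 4 lower, summed to 72.6, 64.6 and 16.5 CPM against 14.8 to 18.07 CPM, mostly Kdr, and Cdh5 was under 0.1 CPM in every sample. The 10 photoreceptor genes (3 higher, 1 lower) summed to 3.94 to 12.1 CPM at E18 and 3.95 to 5.32 CPM at P5, and the 8 bipolar genes (1 higher, 4 lower) to 53.8 to 62.3 CPM and 83.7 to 115.2 CPM. The 9 genes of Muller glia and astrocytes (1 higher, 1 lower) summed to 352 to 377 CPM at E18 and 319 to 327 CPM at P5, mostly Glul. The 8 oligodendrocyte genes (1 higher, 2 lower) summed to 90.7 to 91.5 CPM at E18 and 53.9 to 73.6 CPM at P5. The 9 microglial genes, none called, summed to at most 2.76 CPM, and the 8 red blood cell genes, none called, to at most 1.82 CPM. The part of these cells in the results below was not tested, and in bulk samples fewer cells of a type and less RNA per cell cannot be told apart.

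Most initiation factor genes differed little between the ages, and most of those that passed the test were higher at E18. Of the 55 genes, 52 passed the expression filter and 16 (30.8%) were called by edgeR's quasi-likelihood test at an adjusted p of 0.05, where 43.4% of all 16449 tested genes were called. The calls were 13 higher at E18 (25%) against 20.8% of all tested genes, and 3 lower (5.77%) against 22.5%. Below, a gene said to rise is higher at E18 than at P5, and a gene said to fall is lower at E18. Log2 fold changes of E18 over P5 were positive in 37 of 52, with a median of 0.14 against 0.00 over all tested genes, and their middle part ran from -0.04 to 0.29 (25th to 75th percentile) against -0.40 to 0.38. The median absolute change was 0.19 against 0.39 on the log2 scale. Only Eif4ebp2 differed by 2-fold or more among the 52, where 17.8% of all tested genes did, and 5 of the 52 reached an absolute log2 fold change of 0.5, where 40.5% of all tested genes did. All 3 E18 samples lay above all 3 P5 samples in 21 of the 52 genes, against 27.6% of all tested genes, and below them in 5, against 28.5%. The count of calls rests on the samples included. It was 8, 6 and 8 without E18 replicate 1, 3 or 4, where 30.5%, 27.3% and 34.9% of all tested genes were called. Without P5 replicate 6, 8 or 9 it was 12, 20 and 8, where 33.4%, 52.5% and 32.3% of all tested genes were called. Eif1, Eif1ax, Eif4b, Eif4g2, Eif4ebp2 and Eif5a2 were called in each of 12 further fits, which changed the tool, normalization or filter or left out 1 sample. With E18 replicate 4 alone against the P5 samples, a fit added after the data were seen that assumes this lone sample to vary like the P5 samples, 2 genes were called, Eif1 and Eif5a2, where 9.61% of all tested genes were. All 16 genes kept their direction in that fit.

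**Figure D1:**
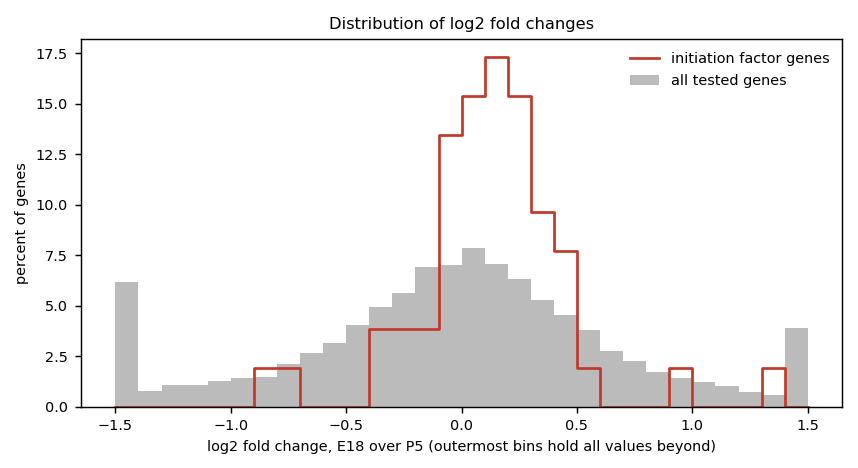
Histogram of log2 fold changes (x axis, E18 over P5, with the outermost bins holding all values beyond) as a percentage of genes (y axis), for the 52 tested initiation factor genes (red line) and all 16449 tested genes (grey bars). The red line is narrower and sits slightly to the right of 0, with a median of 0.14.

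Summed over all 55 genes, the level was 8555, 8933 and 8636 CPM in E18 replicates 1, 3 and 4 and 7696, 7702 and 7312 CPM in P5 replicates 6, 8 and 9. The E18 samples were all above the P5 samples. The means of 8708 ± 199 and 7570.0 ± 224 CPM (SD, n = 3 each) differ 1.15-fold (exact two-sided permutation p = 0.1, the smallest that 3 against 3 allows). The genes took 0.840% to 0.875% of all counts at E18 and 0.741% to 0.775% at P5. By role, the summed level was 1.21-fold higher at E18 for the eIF4 group, 1.13-fold for eIF3, 1.13-fold for the scanning factors and 1.48-fold for the eIF4E-binding proteins, all with no overlap between ages (exact permutation p = 0.1 each), and the eIF2 group with 1.03-fold, eIF2B with 1.01-fold and the kinases with 1.08-fold overlapped. That of eIF5A was lower at E18, at 0.882 of the P5 mean, without overlap (exact permutation p = 0.1). The sum of the eIF4E-binding proteins was mostly Eif4enif1, which is not a 4E-BP. Its mean was 63.2 of 82.8 CPM at E18 and 44.9 of 56.0 CPM at P5.

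**Figure D2:**
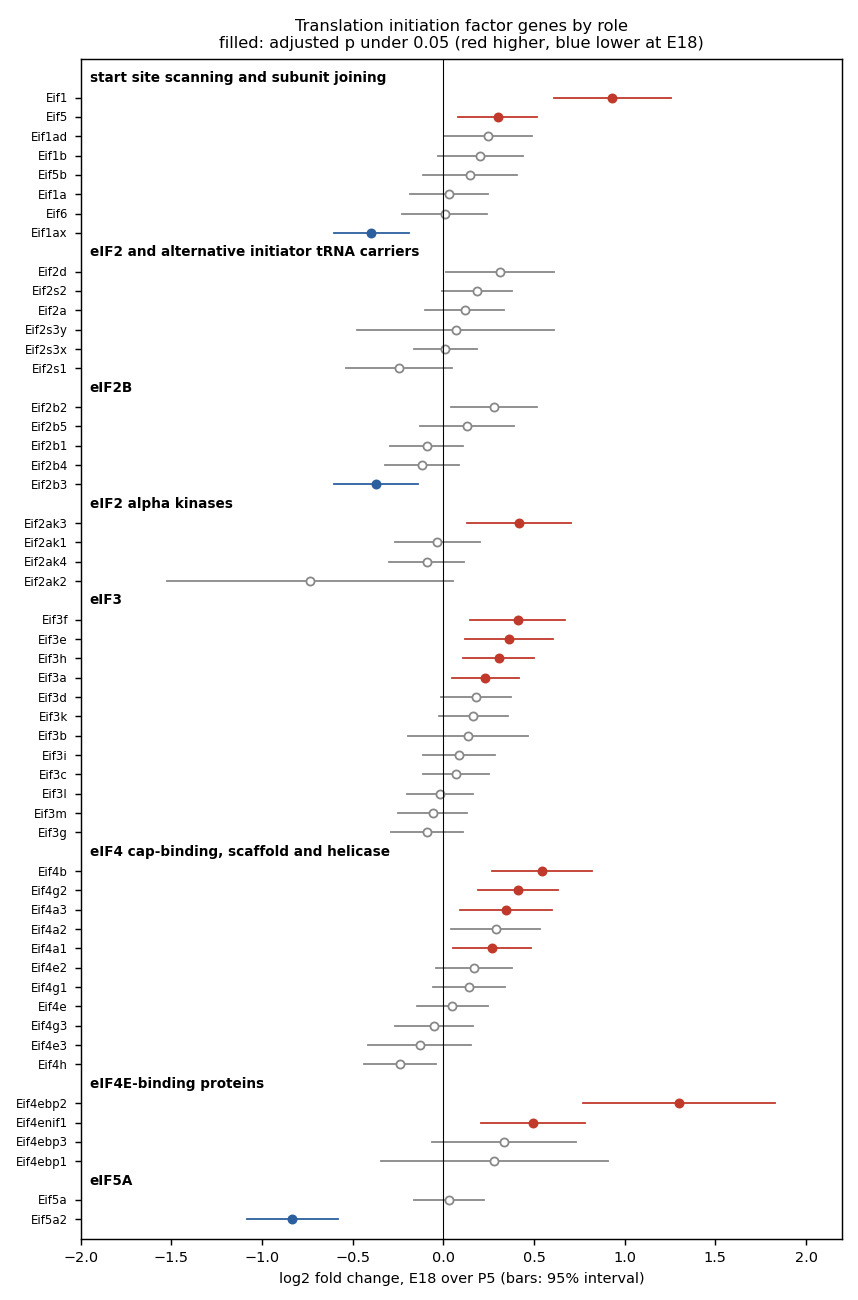
Log2 fold change (x axis, E18 over P5) with its 95% interval for each of the 52 tested genes, grouped by role (y axis). Filled points passed an adjusted p of 0.05, 13 in red to the right of 0 and 3 in blue to the left.

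Among the factors that scan for the start codon and join the subunits, 2 of 8 rose and 1 fell at E18. The share called was 37.5%, against 43.4% of all tested genes. eIF1 keeps the scanning ribosome open and rejects poor start codons. Eif1 (chr11:100319885-100322096, plus strand, a protein-coding gene of GENCODE vM21) stood at 85.5, 92.4 and 84.5 CPM in E18 replicates 1, 3 and 4 and at 48.1, 53.5 and 35.9 CPM in P5 replicates 6, 8 and 9. Every E18 value was above every P5 value. The difference was 0.93 ± 0.143 on the log2 scale (SE), or 1.91-fold, with an edgeR Benjamini-Hochberg adjusted p of 0.00153. Of the 100-base windows of its transcripts, 12.5% also occur in other genes, so part of its count is uncertain.

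Eif1ax encodes eIF1A, which works with eIF1 in start codon choice, from the X chromosome (chrX:159372178-159389928, plus strand). It was lower at E18, at 92.5, 96.2 and 101 CPM against 136, 117 and 129 CPM at P5, without overlap. Its log2 fold change was -0.40 ± 0.0906, with an edgeR adjusted p of 0.00845. Its paralogue Eif1a had 85.8, 89.2 and 96.2 CPM at E18 and 96.0, 87.7 and 82.2 CPM at P5, which overlap (0.03, 95% interval -0.19 to 0.24). Eif5 encodes the GTPase-activating partner of eIF2, and it rose at E18, with 288, 262 and 258 CPM against 211, 241 and 205 CPM, a log2 fold change of 0.30 and an edgeR adjusted p of 0.0328. That call was lost without any one of E18 replicates 1, 3 and 4 or P5 replicates 6 and 9, with adjusted p-values up to 0.122. The remaining members were not called, and Eif1b, a close relative of Eif1, had 77.1, 87.9 and 83.5 CPM at E18 and 66.5, 80.5 and 68.7 CPM at P5 (0.20, 95% interval -0.03 to 0.44). Eif1ad, Eif5b and Eif6, the last an anti-association factor of the large subunit, had log2 fold changes of 0.24, 0.15 and 0.01.

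**Figure D3:**
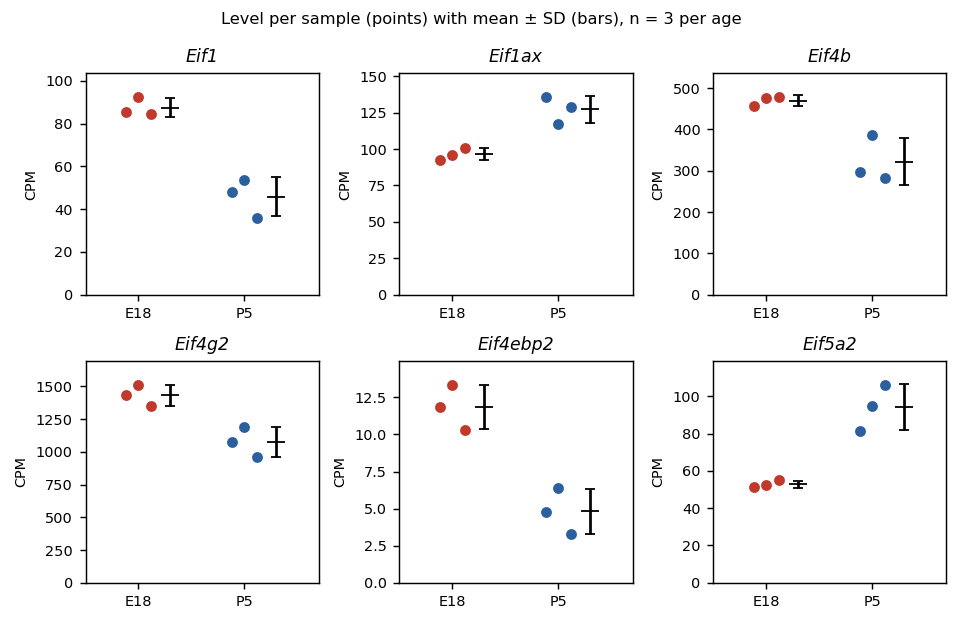
Level in CPM (y axis) of the 6 genes called with every other tool, normalization or filter and with each sample left out, with each sample as a point and the mean ± SD beside it (n = 3 per age, E18 red and P5 blue). The E18 samples of Eif1, Eif4b, Eif4g2 and Eif4ebp2 sit above the P5 samples, and those of Eif1ax and Eif5a2 sit below.

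None of the 6 genes of eIF2 and the alternative carriers of initiator tRNA was called, against 43.4% of all tested genes. Eif2s1, Eif2s2 and Eif2s3x encode the α, β and γ subunits. Eif2s3x had 126, 127 and 126 CPM at E18 and 124, 126 and 125 CPM at P5, a log2 fold change of 0.01 with a 95% interval of -0.16 to 0.18. Its Y-linked copy Eif2s3y varied more, with 38.4, 51.3 and 57.5 CPM against 45.7, 63.0 and 31.6 CPM, and the study used mice of either sex. Of the windows of Eif2s3x, 34.6% occur elsewhere. The log2 fold changes of the group ran from -0.24 (Eif2s1) to 0.31 (Eif2d, which delivers initiator tRNA without eIF2), and the intervals of both allow a change of over 0.5 on the log2 scale.

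eIF2B recharges eIF2 with GTP, and 1 of its 5 subunit genes was called (20.0%, against 43.4% of all tested genes). Eif2b3, the γ subunit of its catalytic part, was lower at E18, at 22.6, 23.9 and 23.6 CPM against 29.7, 28.1 and 33.0 CPM, without overlap. The log2 fold change was -0.37 ± 0.102, with an edgeR adjusted p of 0.0189. That call was lost without E18 replicate 1, 3 or 4 or P5 replicate 9, with adjusted p-values up to 0.0861. The other subunit genes were not called, from -0.12 for Eif2b4 to 0.28 for Eif2b2.

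Of the 4 kinases that phosphorylate eIF2α, Eif2ak3, which encodes PERK, the sensor of unfolded protein in the endoplasmic reticulum, was called. It had 63.5, 69.5 and 66.7 CPM at E18 and 47.8, 59.1 and 42.5 CPM at P5, without overlap. The log2 fold change was 0.42 ± 0.127, with an edgeR adjusted p of 0.0270. Without E18 replicate 1, 3 or 4 or P5 replicate 6 or 9 it was not called, with adjusted p-values up to 0.0949. Eif2ak4, which encodes the amino acid sensor GCN2, and Eif2ak1, which encodes the heme-regulated kinase, had -0.09 and -0.03 and overlapped. Eif2ak2, which encodes the double-stranded RNA sensor PKR, was rare, with 1.80 ± 0.462 CPM at E18 and 3.00 ± 1.37 CPM at P5, and its interval of -1.52 to 0.05 leaves a large change possible.

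eIF3 is the large scaffold that holds the small subunit and the mRNA together. Of its 14 genes 12 were tested, 4 rose at E18 and none fell. The share called was 33.3%, against 43.4% of all tested genes (20.8% higher and 22.5% lower). Eif3f had 179, 188 and 195 CPM at E18 and 135, 165 and 124 CPM at P5 (0.41 ± 0.115, edgeR adjusted p = 0.0205). Eif3e had 191, 197 and 185 CPM against 157, 161 and 127 CPM (0.36 ± 0.106, edgeR adjusted p = 0.0241). In both, the ages did not overlap, as was also true of Eif3h, with a log2 fold change of 0.30, and Eif3a, the largest subunit, with 0.23. The edgeR adjusted p-values of Eif3h and Eif3a were 0.0212 and 0.0478. Of the windows of Eif3h, 11.8% also occur in another gene, so part of its count is uncertain. Each of the 4 calls was lost when certain samples were left out, with adjusted p-values up to 0.0855 for Eif3e without E18 replicate 1 or 3, 0.0719 for Eif3f without E18 replicate 3 or 4 or P5 replicate 6 or 9, 0.0756 for Eif3h without E18 replicate 1, 3 or 4 or P5 replicate 9, and 0.160 for Eif3a without any one of the 6 samples. Eif3a was also not called by the likelihood ratio or exact test of edgeR or with no filter on low counts. The 8 genes that were not called ran from -0.09 (Eif3g) to 0.18 (Eif3d). Eif3b, the RNA-binding subunit, had its highest value, 97.5 CPM, in E18 replicate 1, against 70.8 and 73.0 CPM in the other E18 samples. Its log2 fold change went from 0.14 to -0.02 without E18 replicate 1. Eif3j1 and Eif3j2, copies with 40.3% and 84.0% of their windows shared, had 1 to 6 counts and 0 counts per sample and were not tested.

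In the group that reads the cap and unwinds the mRNA, 4 of 11 tested genes rose and none fell. The share called was 36.4%, against 43.4% of all tested genes (20.8% higher and 22.5% lower). Eif4b encodes the cofactor that stimulates the eIF4A helicase. It stood at 455, 476 and 478 CPM in E18 replicates 1, 3 and 4 and at 298, 386 and 283 CPM in P5 replicates 6, 8 and 9. Every E18 value exceeded every P5 value, and the log2 fold change was 0.54 ± 0.122, or 1.46-fold, with an edgeR adjusted p of 0.00797. Eif4g2 (DAP5), a scaffold related to eIF4G that lacks the eIF4E-binding part and serves cap-independent initiation, had the highest CPM of the 55 genes, at 1438, 1511 and 1348 CPM at E18 and 1076, 1189 and 965 CPM at P5. It rose 1.33-fold at E18 without overlap (0.41 ± 0.0981, edgeR adjusted p = 0.0103). Its gene lies at chr7:111067750-111083030 (minus strand) and that of Eif4b at chr15:102073773-102097173 (plus strand).

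The helicase gene Eif4a1 had 841, 923 and 847 CPM at E18 and 799.8, 665 and 704 CPM at P5, a log2 fold change of 0.27 with an edgeR adjusted p of 0.0481. Its call was lost with no filter on low counts and without any sample but P5 replicate 6, with adjusted p-values up to 0.166, and 60.8% of its windows occur in other genes, among them the pseudogene Eif4a-ps4. Its neuronal paralogue Eif4a2 had 754, 797 and 793 CPM against 745, 578 and 598 CPM, with 0.29 and an edgeR adjusted p of 0.0594. The ages did not overlap in either gene. Eif4a3, which belongs to the exon junction complex rather than to initiation, was higher at E18, at 92.4 ± 4.03 CPM against 72.7 ± 9.87 CPM at P5. Its log2 fold change was 0.35 (edgeR adjusted p = 0.0342, up to 0.119 when E18 replicate 1, 3 or 4 or P5 replicate 6 or 9 was left out). Eif4h, a second helicase cofactor, went the other way, with 234, 233 and 239.5 CPM at E18 and 256, 278 and 299 CPM at P5 and no overlap, and was not called (-0.24, 95% interval -0.44 to -0.04, edgeR adjusted p = 0.0553). The cap-binding protein gene Eif4e had 164, 176 and 172 CPM against 176, 164 and 155 CPM, with 0.05 and a 95% interval of -0.15 to 0.24. The scaffold gene Eif4g1 had 436, 466 and 487 CPM against 427, 391 and 439.5 CPM, with 0.14. Its paralogue Eif4g3 had 173, 183 and 175 CPM against 163, 188 and 197 CPM, with -0.05. Eif4e2, which encodes a cap-binding repressor, had 77.0, 81.4 and 82.4 CPM against 67.7, 78.0 and 68.8 CPM, with 0.17, and Eif4e1b had at most 2 counts in a sample.

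Of the 4 genes whose products bind eIF4E, 2 rose (50.0% called, against 43.4% of all tested genes). Eif4ebp2, the 4E-BP most known from brain, lies at chr10:61428491-61452661 on the minus strand and had 11.9, 13.3 and 10.3 CPM in E18 replicates 1, 3 and 4 and 4.75, 6.36 and 3.32 CPM in P5 replicates 6, 8 and 9. Every E18 value was well above every P5 value. Its log2 fold change of 1.30 ± 0.233, or 2.46-fold, was the largest among the 52 tested genes (edgeR adjusted p = 0.00298). Eif4enif1, which encodes 4E-T, the protein that carries eIF4E to the nucleus and to P-bodies, had 62.5, 68.1 and 59.0 CPM against 41.3, 53.2 and 40.2 CPM, without overlap (0.49 ± 0.126, edgeR adjusted p = 0.0140). That call was lost without E18 replicate 3 or P5 replicate 6, with adjusted p-values up to 0.0627. Eif4ebp1 had 3.79, 2.25 and 2.26 CPM against 2.56, 1.74 and 2.53 CPM, with 0.28 and a 95% interval of -0.35 to 0.91, and without E18 replicate 1 the value was -0.01. Eif4ebp3 had 5.0 ± 0.273 CPM at E18 and 3.97 ± 0.546 CPM at P5, and 67.3% of its exon bases overlap another gene on the same strand.

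eIF5A carries hypusine, a modified lysine, and relieves ribosomes stalled at certain peptide sequences. Of its paralogues, Eif5a2 (chr3:28781276-28798846, plus strand) had 51.3, 52.4 and 55.0 CPM in E18 replicates 1, 3 and 4 and 81.4, 95 and 106 CPM in P5 replicates 6, 8 and 9. Every E18 value was below every P5 value. Its log2 fold change of -0.83 ± 0.111, a 1.78-fold difference, had the smallest adjusted p of the 52, 0.000885 by edgeR. Eif5a had 205, 227 and 233 CPM against 223, 212 and 215 CPM, with 0.03 and a 95% interval of -0.16 to 0.22.

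Paralogues were also compared as a ratio of counts within a sample, which does not depend on library size. Of 8 pairs, 3 had no overlap between the ages, and none passed the adjustment over the pairs, since the smallest p is 0.1. The ratio of Eif5a to Eif5a2 was 3.99, 4.34 and 4.23 in the E18 samples and 2.74, 2.23 and 2.03 in the P5 samples. The difference was 0.85 on the log2 scale (exact two-sided permutation p = 0.1, adjusted p = 0.267). The ratio of Eif1 to Eif1b was 1.11, 1.05 and 1.01 at E18 and 0.723, 0.665 and 0.523 at P5, and that of Eif1a to Eif1ax was 0.928, 0.928 and 0.953 against 0.707, 0.747 and 0.639. Their differences were 0.74 and 0.43 on the log2 scale, with the same exact p-values as the first pair. The ratio of Eif4a1 to Eif4a2 ran from 1.07 to 1.16 at E18 and from 1.07 to 1.18 at P5, with a difference of -0.03 (exact permutation p = 0.7). The differences of the Eif4g1 to Eif4g3, Eif4e to Eif4e2, Eif4ebp1 to Eif4ebp2 and Eif2s3x to Eif2s3y ratios were 0.19, -0.12, -1.09 and -0.10 on the log2 scale, and the ages overlapped in each.

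**Figure D4:**
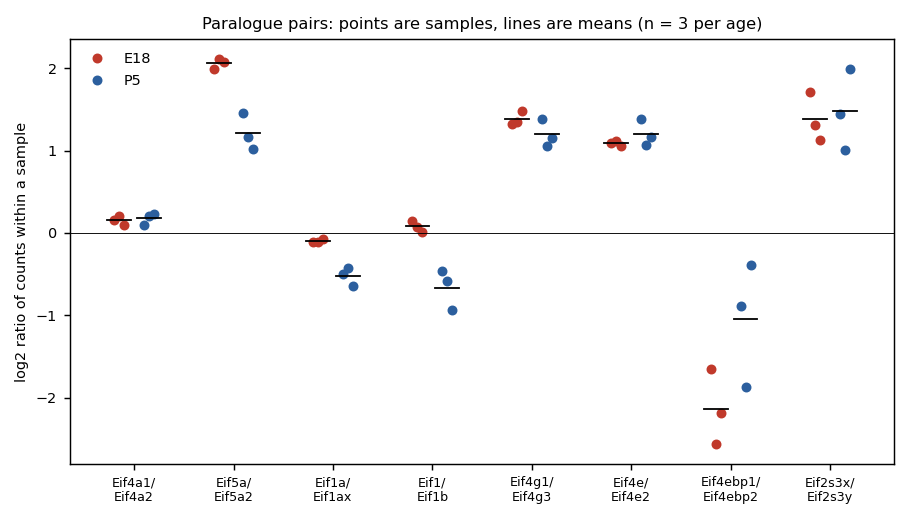
Log2 ratio of counts of 2 paralogues within each sample (y axis) for 8 pairs (x axis), with E18 samples in red, P5 samples in blue and lines at the means. The ages separate for Eif5a/Eif5a2, Eif1a/Eif1ax and Eif1/Eif1b and overlap for the other pairs.

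CPM and the paralogue ratios above also depend on the length of each gene. Levels between genes were therefore also compared per length, as counts per kilobase of merged exons. These values were scaled to the same total in every sample over the 22802 genes with a length. On this scale the highest level at E18 was that of Eif4a1, at 840.3 ± 45.9, followed by Eif4a2 at 612 ± 9.34 and Eif4g2 at 590.0 ± 42.9, and the last 2 did not differ beyond their spread. Eif4b stood at 440 ± 3.66 and Eif5a at 390 ± 16.1. The values of eIF3 subunits, which assemble together, ran from 371 ± 4.66 for Eif3h and 363 ± 11.0 for Eif3c to 93.0 ± 3.46 for Eif3i among the 12 tested. This range rests on the length used. The merged exons of Eif3i, over all its transcripts, held 3702 bases, but its protein-coding transcripts alone gave only 1121 distinct windows. For Eif3h these were 1612 and 1196, for Eif3c 3511 and 3422, for Eif4a2 5338 and 3366 and for Eif4g2 10166 and 8953. Differences or ties between genes on this scale may therefore come from the length, and their levels cannot be ranked from it. Eif4ebp2 was near the bottom in spite of its fold change, at 8.59 at E18 and 3.67 at P5.

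The genes around the initiation machinery were described from 4 lists. Among 24 cofactors of initiation, 3 rose and 2 fell at E18 (20.8% called, against 43.4% of all tested genes). Pabpc4 and Pabpc1, which encode poly(A)-binding proteins that join the mRNA ends, rose by 0.47 and 0.36 on the log2 scale, and Ddx3x, a scanning helicase gene, by 0.43. Pdcd4, whose product inhibits eIF4A, was lower at E18, at 124, 127 and 139.9 CPM against 208, 218 and 240.3 CPM, without overlap (-0.77 ± 0.0936, edgeR adjusted p = 0.00062). Dhps, which encodes the first enzyme of hypusine synthesis on eIF5A, fell by 0.34 and was not called with upper-quartile normalization, which left 1 lower call beside 3 higher, with no filter on low counts or without any sample but P5 replicate 8 (adjusted p up to 0.151). Pabpc1 lost its call without E18 replicate 1 or 3 or P5 replicate 6 or 9, and Ddx3x without E18 replicate 3 or P5 replicate 6, with adjusted p-values up to 0.1 and 0.0671.

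The integrated stress response, the program set off by phosphorylated eIF2, had 11 of 28 genes higher and 8 lower at E18 (67.9% called, against 43.4% of all tested genes). Ddit3, which encodes CHOP, had 24.1, 23.8 and 22.7 CPM at E18 and 11.1, 9.43 and 10.2 CPM at P5. It rose by 1.20 ± 0.111 on the log2 scale without overlap (edgeR adjusted p = 0.000237). Trib3, a pseudokinase gene, rose by 1.16, and Atf3, which encodes an injury-induced transcription factor, by 1.60 at 6.57 ± 1.72 CPM against 2.17 ± 1.62 CPM. Atf3 lost its call without E18 replicate 1 or P5 replicate 8, with adjusted p-values up to 0.0831. Atf4 itself, chosen after its value was seen, had 309, 320.3 and 309 CPM against 190.3, 181 and 146 CPM (0.86 ± 0.110, edgeR adjusted p = 0.000749). The largest falls were those of Nupr1 (-2.84), which is rare at 0.103 ± 0.0606 CPM at E18 and 0.754 ± 0.367 CPM at P5, Cebpb (-1.45) and Slc7a11 (-0.81), the gene of a cystine carrier whose call was lost without E18 replicate 3 or P5 replicate 6 (adjusted p up to 0.0566). The members that fell include the aminoacyl-tRNA synthetase genes Aars, Nars and Wars, also named after their values were seen, with -0.46, -0.28 and -0.37, while Gars and Sars of the same family were not called. Nars lost its call with upper-quartile normalization, with no filter on low counts or without any sample but P5 replicate 8, and Wars without E18 replicate 1 or 3 or P5 replicate 6 or 9, with adjusted p-values up to 0.141 and 0.0848.

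Of 22 genes of mTORC1 and the MNK kinases, which act on the 4E-BPs and on eIF4E, 4 were higher and 6 lower at E18. The share called was 45.5%, against 43.4% of all tested genes. Akt1s1 and Deptor both encode inhibitors within mTORC1, and they moved in opposite directions. Akt1s1 had 24.3, 23.3 and 26.1 CPM against 13.8, 17.5 and 15.5 CPM (0.65 ± 0.121, edgeR adjusted p = 0.00351). Deptor had 1.74, 1.5 and 1.58 CPM against 2.89, 3.12 and 2.5 CPM (-0.82 ± 0.199, edgeR adjusted p = 0.0111, or 0.0581 without E18 replicate 3). The genes of both MNK kinases, which phosphorylate eIF4E, also differed in direction, with Mknk2 at 0.54 and Mknk1 at -0.58. Akt1 was higher at E18 by 0.34, and Rragd, which encodes a GTPase that brings mTORC1 to the lysosome, was lower at E18 by 0.56. The calls of Mknk1, Mknk2 and Akt1 were lost when certain samples were left out (E18 replicate 3 or 4 or P5 replicate 6 or 9, and for Mknk1 also E18 replicate 1), with adjusted p-values up to 0.104, 0.111 and 0.0805.

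Of 12 genes of elongation and termination, 4 were higher and 2 lower at E18 (50.0% called, against 43.4% of all tested genes). Eef2, the translocase gene, had 2461, 2461 and 2697 CPM against 1391, 1564 and 1391 CPM (0.81 ± 0.0858, edgeR adjusted p = 0.000362). Eef1a1, which encodes the tRNA-delivering factor of most cells, had 6057, 6749.6 and 6732 CPM against 4647, 4678 and 3644 CPM (0.59 ± 0.109, edgeR adjusted p = 0.00345). Its counterpart of mature neurons and muscle, Eef1a2, was lower at E18, at 86.1, 77.3 and 86.6 CPM against 196, 160.0 and 271 CPM (-1.33 ± 0.176, edgeR adjusted p = 0.000858). None of these 3 genes overlapped between the ages. Eef1g, a subunit of the exchange factor of eEF1A, was higher at E18 by 0.57. Etf1, the release factor gene, was lower at E18 by 0.29 and lost its call without E18 replicate 1, 3 or 4 or P5 replicate 9 (adjusted p up to 0.116).

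**Figure D5:**
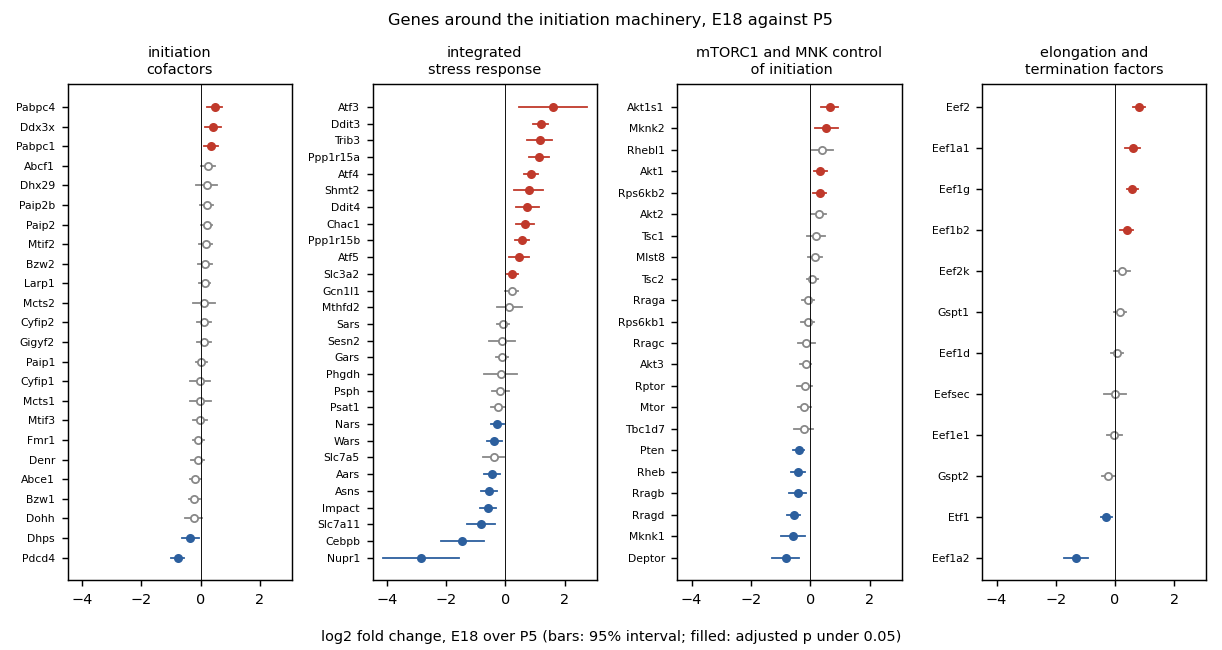
Log2 fold change (x axis, E18 over P5) with its 95% interval for every gene (y axis) of the 4 lists, with filled points at an adjusted p under 0.05. The stress response list is the most spread, from Nupr1 at -2.84 to Atf3 at 1.60.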

How the data were processed

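RNA-seq counts of immunopanned RGCs from 3 E18 and 3 P5 samples were grouped by age from their labels. The authors sequenced 100-base paired-end reads, aligned them to mm10 with STAR 2.4.0, counted them on RefSeq genes (version 07.24.14) with HT-seq 0.6.1 and deposited raw counts. CASAVA 1.8.2 and edgeR stand in the submitters' processing notes. The labels name polyA RNA, whereas the protocol names ribosomal depletion. Strand and multi-mapping settings are not given in the sources used here, so counts of near-identical and overlapping genes are uncertain. The deposited normalized counts, a signal scaled by the authors, the deposited log2 fold changes (over all samples and per E18 sample over P5), the deposited p-value and false discovery rate columns and a rank deposited by the authors were not used.

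Genes passing edgeR's expression filter (16449; 2411 of 24060 had no count) were compared by age with quasi-likelihood fits in edgeR 4.0.16 (R 4.3.3) after TMM scaling, with Benjamini-Hochberg adjustment over all tested genes and a threshold of 0.05. CPM uses TMM-normalized library sizes. Single values were tested by exact permutation over samples (scipy 1.17.1). The fit was tested on simulated data of 16288 genes, where it recovered 56 of 100 genes changed by 1 and 17 of 100 changed by 0.5 on the log2 scale, with 6 false calls. No other genes were changed there, whereas 43.4% of tested genes were called in the data. The adjustment depends on that share, so these recovery rates need not hold for the data. Replicates of an age differed by 30.5 to 141 chi-square units per degree of freedom, more than counting noise gives, though repeat preparations of the same cells could also exceed it. Depth was high (81213639 to 114512853 counts), so the spread between samples limits precision for all but the rarest genes. Rn45s took 0.0953% to 0.329% of counts.

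The genes and lists were chosen with earlier results of these data known. Values in every sample were planned for called genes with an absolute log2 fold change of at least 0.5, for the paralogue pairs and for the 2 called genes with the largest rise and fall in each role; of each list, the 3 largest called rises and falls were named. Gene coordinates are those of GENCODE vM21, matched by symbol. Windows are the distinct stretches of 100 bases in the protein-coding transcripts of a gene. Those shared with other genes are exact matches to GENCODE transcripts of genes whose exons do not overlap it. Merged exons cover all transcripts of a gene, so their length and the number of windows come from different sets of transcripts. Alternatives were DESeq2 1.42.0, edgeR's likelihood ratio and exact tests, upper-quartile normalization, other filters and the omission of each sample, and E18 replicate 4 alone against P5 was added after the data were seen.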

Additional observations from a re-analysis of the deposited data

How the results depend on the processing

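No paired analysis was possible because the ages share no replicate number. Other tools, normalizations and filters gave 14 to 19 calls among the initiation factor genes, against 16. They called 33.0% to 47.1% of all tested genes, against 43.4%. DESeq2 kept all 16 and added Eif2b2, Eif4a2 and Eif4h, and upper-quartile normalization left 1 lower call among the cofactors, where Dhps was lost. With the filter of at least 1 CPM, the log2 fold change of Eif6 was -0.0022. Leaving out each sample in turn gave 6 to 20 calls, with 4 to 15 higher and 2 to 5 lower at E18. The share of all tested genes called by these fits also moved, from 27.3% to 52.5%, against 43.4% with all samples. The list counts below come from the same fits. E18 replicate 4 alone against P5, added after the data were seen, gave 2 calls, 1 higher and 1 lower, and a summed level 1.14-fold higher at E18. In the lists, leaving out each sample in turn gave 2 to 6 calls for the cofactors (1 to 3 higher, 1 to 3 lower). For the stress response this omission gave 7 to 10 higher and 5 to 8 lower. For mTORC1 it gave 4 to 16 calls (1 to 7 higher, 3 to 9 lower), and for elongation 1 to 2 lower. The causes were not tested. Fewer samples enter each of these fits. Among genes that were not called, leaving out a sample changed the sign of the log2 fold change within the ranges -0.024 to 0.074 for Eif1a, -0.076 to 0.090 for Eif6, -0.012 to 0.017 for Eif2s3x, -0.15 to 0.32 for Eif2s3y, -0.13 to 0.0031 for Eif2ak1, -0.020 to 0.22 for Eif3b, -0.062 to 0.0092 for Eif3l, -0.14 to 0.0056 for Eif4g3, -0.0075 to 0.41 for Eif4ebp1 and -0.0044 to 0.089 for Eif5a. The difference in log2 ratio ranged from -0.065 to 0.0035 for Eif4a1 to Eif4a2 and from -0.33 to 0.16 for Eif2s3x to Eif2s3y. None of the 16 called genes changed sign under these alternatives. The summed level kept its direction, from 1.13-fold to 1.16-fold.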
